A study of Mus musculus with 2 samples.

Results

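The immediate early genes Egr1, Egr2, Egr3, Egr4, Nr4a1, Nr4a2, Nr4a3, Arc and Npas4 were examined for open chromatin in mouse cerebral cortex. The 9 genes were chosen by name, and all 9 were found among the 21938 protein-coding genes of the GENCODE M21 annotation. DNase-seq, which marks stretches of chromatin that the enzyme DNase I can cut, had been run on the right cerebral cortex of female adult B6CASTF1/J mice aged 18 to 20 months. B6CASTF1/J mice are first-generation hybrids, with a C57BL/6J and a CAST/EiJ parent. Samples formed 1 group of 2 biological replicates with no treatment and no control, so the values below are descriptions without a test. The labels give each replicate its own biosample but the same donor identifier, so part of the spread between the replicates may be technical.

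Immediate early genes are transcribed within minutes of neuronal activity without new protein synthesis. Their promoters and upstream enhancers are known to bind factors that are already present in the resting cell, among them CREB at cAMP response elements, serum response factor (SRF) at CArG boxes and MEF2 factors. The EGR proteins are zinc-finger transcription factors that bind GC-rich sites, and the NR4A proteins are orphan nuclear receptors. Arc encodes a synaptic protein that regulates the uptake of AMPA receptors, and Npas4 encodes a transcription factor of the bHLH-PAS family that shapes inhibitory synapses onto active neurons.

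The authors deposited for each library 2 peak lists, with 86601 and 88482 peaks in the shorter list of replicate 1 and replicate 2, and 307092 and 279769 footprints, which are short stretches protected from cutting inside open chromatin. Each peak carries a signal value whose normalization the sources used here do not give. The values came in whole numbers of a smallest step (tolerance 0.05 steps). Taking that step as 1 read per M reads (M for mega) gives depths of 201 M in replicate 1, the deeper, and 112 M in replicate 2. The 8 pan-neuronal markers all had a promoter peak in both replicates. So did 5 of 8 excitatory neuron, 2 of 8 inhibitory neuron, 5 of 8 astrocyte, 3 of 8 oligodendrocyte, 2 of 8 microglial, 2 of 8 endothelial and 0 of 8 hepatocyte markers. The tissue is a mixture, and fewer open cells cannot be told apart from weaker opening in each cell.

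All 9 genes had a peak within 500 bp of an annotated start in both replicates, against 57.9 percent of all protein-coding genes. In the longer peak list, where again all 9 did, the share of all genes was 62.4 percent. The observed over expected ratio of CpG in their promoters ranged from 0.451 in Npas4 to 0.866 in Nr4a2, and that of all but Npas4 lay above the median of all genes, 0.550. Among the 12373 genes with a ratio at or above that of Npas4, a comparison chosen after the values were seen, 86.2 percent had such a peak. The strongest promoter peak of a gene had a median value over the 9 genes of 2.59 in replicate 1 and 3.94 in replicate 2, beside 2.19 and 3.20 over the 12692 genes called in both. Of the 9 genes, 6 lay above the median of all genes in both replicates. Those were Egr1, Egr3, Egr4, Nr4a1, Nr4a3 and Arc.

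Ranked by the mean value of the single strongest promoter peak, Arc and Egr1 came first and Npas4 last. Arc averaged 5.27 ± 1.42 and Egr1 4.65 ± 1.24 (SD, n = 2 each). Egr4 (3.99 ± 0.34), Nr4a1 (3.77 ± 1.26), Egr3 (3.25 ± 0.98), Nr4a3 (3.01 ± 0.60) and Egr2 (2.69 ± 0.44) followed, before Nr4a2 (1.92 ± 0.78) and Npas4 (1.90 ± 0.49), again as mean ± SD of 2 replicates. Summed over all promoter peaks of a gene, the order changed, with means of 12.4 for Egr1, 6.57 for Egr2 and 5.86 for Nr4a1 ahead of 5.27 for Arc, and Npas4 stayed last at 1.90. The order of neighbours was not the same in both replicates for Egr4 and Nr4a1, for Egr3 and Nr4a3, and for Nr4a2 and Npas4. The strongest peak of Egr1 and of Egr2 lay at different places in the 2 replicates, so their SD is not that of 1 peak. Read as counts, the Arc value stands for 858 reads in replicate 1 (exact 95% Poisson interval 802 to 917). In replicate 2 it stands for 704 (653 to 758). The Npas4 value stands for 314 (280 to 351) and 252 (222 to 285). These intervals cover counting error only and rest on the inferred step, and a value need not count every read in a peak.

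**Figure D1:**
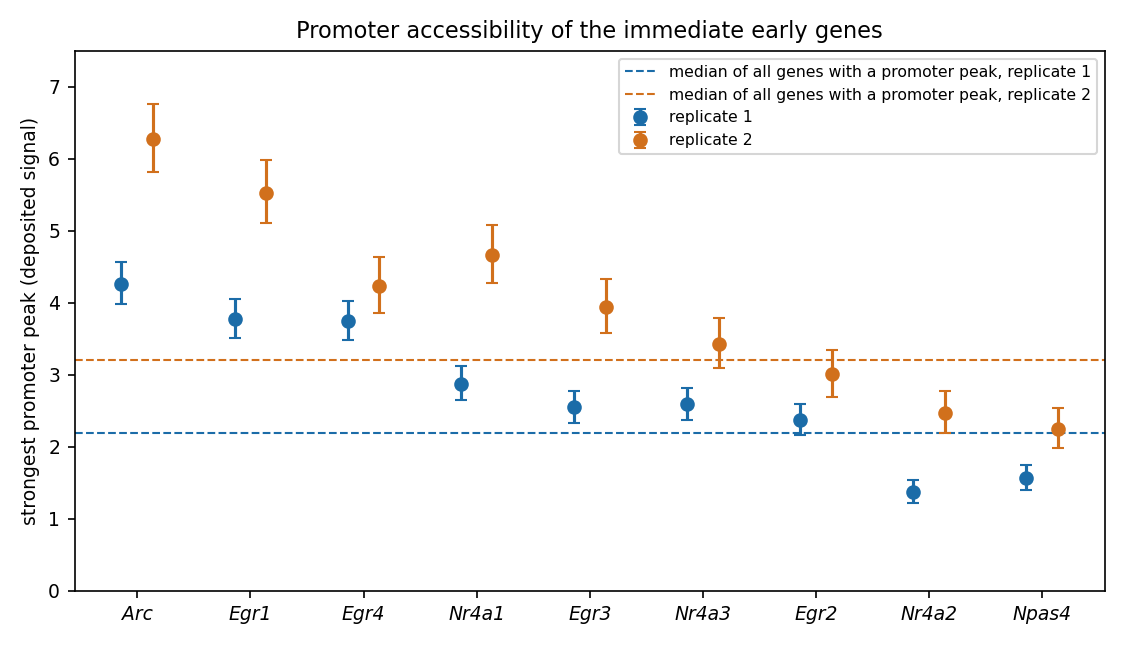
The value of the strongest peak within 500 bp of an annotated start is plotted for each gene, with replicate 1 left of replicate 2. Bars are exact 95% Poisson intervals on the inferred reads, and dashed lines mark the medians of the genes called in both (2.19 in replicate 1 and 3.20 in replicate 2). All 9 genes were higher in replicate 2, and Nr4a2, Npas4 and, in replicate 2, Egr2 lie below the line.

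All 9 promoters had the higher value in replicate 2, as did 93.5 percent of all genes with a promoter peak. Taken gene by gene, the ratio of replicate 2 to replicate 1 had a median of 1.41 over these genes. After that shift was removed, the difference of replicate 1 minus replicate 2 ranged on the log2 scale from -0.35 in Nr4a2 to 0.32 in Egr4. The SD of the same quantity over all genes was 0.35. The largest of the 9 differences was thus about the size of the general spread. For Egr1 and Egr2, however, the difference compares peaks at different places. With the strongest pair of overlapping peaks instead, Egr2 stood at 0.46 rather than 0.16, above that spread. Egr1 stood at -0.18 rather than -0.055.

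Egr1 spans chr18:34859823-34864984 on the plus strand (mm10), and its main start is at 34861207. Its promoter opened in both replicates at 3 places, which had 3.77 in replicate 1 and 4.84 in replicate 2 at 1267 bp upstream, 2.20 and 2.91 at 567 bp upstream, and 3.47 and 5.53 at 77 bp upstream. The strongest place was therefore the one at 1267 bp in replicate 1 and the one at the start in replicate 2. The place at 1267 bp counts as promoter through another annotated start, at the gene's first base. Weaker promoter peaks lay 896 bp upstream in replicate 2 alone (0.963) and 463 bp downstream in replicate 1 alone (1.11). Upstream of the promoter lay 5 shared distal regions within 20 kb, meaning regions with overlapping peaks in both replicates and no annotated start within 500 bp. The strongest of these, 5.81 kb upstream, had 2.17 in replicate 1 and 2.48 in replicate 2, which is 0.574 and 0.448 times the promoter. A region 11.3 kb upstream had 1.73 and 2.26, but its nearest coding start is that of Reep2, as is that of the region 19.8 kb upstream (1.17 and 1.35). The regions at 9.26 kb (2.06 and 1.31) and 10.9 kb (1.10 and 1.36) upstream have Egr1 as the nearest coding gene. The one at 9.26 kb was higher in replicate 1, against the general shift.

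Egr3 spans chr14:70077203-70082614 on the plus strand, with its main start at 70077314. Its promoter peak did not lie on the main start but about 434 bp upstream, with 2.55 in replicate 1 and 3.94 in replicate 2. At the start itself, within 100 bp, replicate 1 had a weak peak of 0.477 and replicate 2 had none. The lowest deposited false discovery rate there was 0.000548 in replicate 1 and 0.0140 in replicate 2. A second strong region 2.25 kb upstream had 3.15 in replicate 1 and 4.53 in replicate 2, or 1.24 and 1.15 times the promoter peak. The region at 2.25 kb thus exceeded the promoter in both replicates, and it had a weaker neighbour 2.68 kb upstream (0.671 and 1.16). Among shared regions with Egr3 as the nearest coding gene, those 82.3 kb (3.44 and 2.73) and 75.4 kb (2.06 and 2.00) upstream lie in introns of Pebp4. The first of them exceeded the region at 2.25 kb in replicate 1 but not in replicate 2.

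Egr2 spans chr10:67535475-67542188 on the plus strand, with its main start at 67537869. The strongest of its promoter peaks lay at 2 neighbouring places. The place 399 bp upstream had 2.38 in replicate 1 and 2.43 in replicate 2, and the place 99 bp upstream had 1.57 and 3.005, so the stronger place differed between replicates. Weaker promoter peaks at other annotated starts lay 1.72 kb upstream (0.810 and 1.38) and 1.17 kb downstream (0.517 and 1.05). A gene-body region in an intron of longer transcripts, 979 bp upstream, had 1.23 and 1.50. No shared distal region lay within 20 kb upstream of Egr2, and its strongest distal region was 45.5 kb upstream, with 1.52 in replicate 1 and 1.96 in replicate 2. The sequence of the region 399 bp upstream is shown (chr10:67537341-67537600, plus strand, GRCm38.p6, the mm10 assembly) because it holds an ETS core CCGGAA, read on the opposite strand, inside a footprint of both replicates. These letters, with or without a footprint, occur within 500 bp of the main start in 33.6 percent of all promoters. Capitals here and in all sequences below mark bases inside a footprint of both replicates, and all sequences are those of the reference genome, not of the hybrid mice.
Egr2 promoter region: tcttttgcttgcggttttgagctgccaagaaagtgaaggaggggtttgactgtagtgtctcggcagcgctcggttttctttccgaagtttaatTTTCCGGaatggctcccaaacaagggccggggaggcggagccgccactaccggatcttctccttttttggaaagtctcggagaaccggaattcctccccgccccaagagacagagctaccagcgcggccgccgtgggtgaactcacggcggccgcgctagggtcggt

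Egr4 spans chr6:85511121-85513589 on the minus strand, with its start at 85513589. A single peak centred 131 bp upstream gave its promoter 3.75 in replicate 1 and 4.24 in replicate 2. The gap between these values was the smallest of the 9 genes, but relative to the general shift between the libraries Egr4 was high in replicate 1 (0.32 on the log2 scale). Shared gene-body regions at 724 bp (0.547 and 0.713) and 2.09 kb (0.601 and 0.865) downstream of the start lie in its exons. Unlike in the other 8 genes, the strongest region outside the promoter lay downstream, 2.92 kb from the start and past the gene's end, with 1.50 in replicate 1 and 2.81 in replicate 2. The promoter (RefSeq, chr6:85513540-85513839, minus strand, GRCm38.p6) is shown because its central footprint, capitalised as TTTACGTCACGGCGCCAGG, holds a CRE half-site TGACG read on the opposite strand.
Egr4 promoter: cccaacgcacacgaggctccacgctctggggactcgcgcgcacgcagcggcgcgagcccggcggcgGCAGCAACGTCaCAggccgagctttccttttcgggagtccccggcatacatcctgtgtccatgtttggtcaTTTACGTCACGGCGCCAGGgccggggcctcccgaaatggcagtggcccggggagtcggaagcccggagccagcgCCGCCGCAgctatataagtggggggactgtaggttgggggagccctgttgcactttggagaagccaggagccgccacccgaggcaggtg

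Nr4a1 spans chr15:101254269-101274795 on the plus strand, and its main start at 101266846 lies inside the annotated gene because a longer transcript begins further upstream, at the gene's first base. The main promoter had 2.88 in replicate 1 and 4.66 in replicate 2. The promoter of the longer transcript, 12.8 kb upstream of the main start, had 1.62 and 2.56. A distal region 20.4 kb upstream of the main start had 4.28 in replicate 1 and 4.49 in replicate 2. It was above the main promoter in replicate 1 (1.49 times) and just below it in replicate 2 (0.962 times), so its rank against the promoter depended on the replicate. Among all 46328 shared distal regions this one fell in the top 0.244 percent of replicate 1 and the top 1.01 percent of replicate 2. A further region 26.0 kb upstream had 1.82 and 4.09, the widest gap between replicates among the distal regions nearest to these genes, in SD (1.61).

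The Nr4a1 main promoter carried more of the searched motifs inside footprints of both replicates than any other region of the 9 genes, with 5 in all. They are 3 GC boxes, an ETS core and an EGR site GCGNGGGCG at -56 bp, which overlaps the GC box at -53 bp. Within 500 bp of the main start, 60.1 percent of all promoters held a GC box, 33.6 percent an ETS core and 15.4 percent an EGR site. A MEF2 site was in 8.96 percent. These shares count letters with or without a footprint. The promoter of the longer transcript held the MEF2 site at -12768 bp from the main start, inside a footprint of both replicates. Both sequences are given on the plus strand, the main promoter from RefSeq (chr15:101266596-101266895, GRCm38.p6) and the upstream one from the genome (chr15:101253941-101254200).
Nr4a1 main promoter: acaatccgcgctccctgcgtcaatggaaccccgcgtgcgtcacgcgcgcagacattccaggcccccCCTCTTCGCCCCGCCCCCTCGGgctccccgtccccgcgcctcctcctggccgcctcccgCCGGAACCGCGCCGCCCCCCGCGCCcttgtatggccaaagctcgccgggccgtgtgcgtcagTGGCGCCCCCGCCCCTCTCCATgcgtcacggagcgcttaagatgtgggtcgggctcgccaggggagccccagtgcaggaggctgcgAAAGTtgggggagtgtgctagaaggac
Nr4a1 upstream promoter: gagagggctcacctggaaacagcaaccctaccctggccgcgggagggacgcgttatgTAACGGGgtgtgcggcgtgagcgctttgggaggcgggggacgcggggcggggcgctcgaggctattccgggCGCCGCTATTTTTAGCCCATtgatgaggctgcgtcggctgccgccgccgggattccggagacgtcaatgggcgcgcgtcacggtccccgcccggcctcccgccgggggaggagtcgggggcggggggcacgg

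Nr4a2 spans chr2:57106830-57124003 on the minus strand, and its main start is at 57115038. Its promoter peak had 1.37 in replicate 1 and 2.47 in replicate 2, both below the medians of all genes. Opening continued upstream inside the longer transcripts at 1.43 kb (0.631 and 0.704), 1.78 kb (0.736 and 1.52) and 2.75 kb (0.646 and 1.17), and a second promoter 9.19 kb upstream had 0.775 and 0.927. Both shared distal regions of Nr4a2 were weak, with 0.422 and 0.954 at 63.2 kb upstream and 0.403 and 0.455 at 42.4 kb downstream. Nr4a2 thus had the fewest shared distal regions within 100 kb, but Egr4 and Nr4a1 likewise were the nearest coding gene of 2 each. Its region 1.78 kb upstream (chr2:57116681-57116960, minus strand, GRCm38.p6), the strongest outside the promoter, is shown for the CRE half-site at -1792 bp in a footprint of both replicates.
Nr4a2 intronic region: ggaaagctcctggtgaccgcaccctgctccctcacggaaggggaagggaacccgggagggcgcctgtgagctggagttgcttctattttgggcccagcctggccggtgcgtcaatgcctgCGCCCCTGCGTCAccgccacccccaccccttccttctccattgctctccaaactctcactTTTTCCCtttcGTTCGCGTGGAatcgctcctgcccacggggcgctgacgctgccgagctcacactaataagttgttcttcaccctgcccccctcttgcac

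Nr4a3 spans chr4:48045153-48086447 on the plus strand, and its main start is at 48045153. The promoter peak at the start had 2.59 in replicate 1 and 3.43 in replicate 2, with a weaker one 433 bp upstream (1.05 and 1.74). A distal region 1.69 kb upstream had 3.54 in replicate 1 and 5.26 in replicate 2, or 1.37 and 1.53 times the promoter. It lay in the top 0.481 percent of shared distal regions in replicate 1 and the top 0.520 percent in replicate 2, and its neighbour 2.10 kb upstream had 1.36 and 2.10. Opening of Nr4a3 in both replicates was therefore highest outside the 500 bp window, within 2 kb of the start. The promoter (RefSeq, chr4:48045055-48045354) is shown for its CRE half-sites at -77 and -59 bp, which lie on opposite strands inside footprints of both replicates. The upstream element (chr4:48043321-48043600) is shown as the strongest of this gene, although none of the searched motifs lay in a footprint of both replicates there. Both are on the plus strand of GRCm38.p6.
Nr4a3 promoter: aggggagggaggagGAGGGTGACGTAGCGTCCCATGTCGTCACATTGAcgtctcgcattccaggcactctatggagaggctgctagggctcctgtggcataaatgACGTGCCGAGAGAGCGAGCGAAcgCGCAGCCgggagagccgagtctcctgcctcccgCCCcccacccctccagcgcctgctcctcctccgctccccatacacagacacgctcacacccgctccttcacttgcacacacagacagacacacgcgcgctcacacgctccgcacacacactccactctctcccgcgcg
Nr4a3 upstream element: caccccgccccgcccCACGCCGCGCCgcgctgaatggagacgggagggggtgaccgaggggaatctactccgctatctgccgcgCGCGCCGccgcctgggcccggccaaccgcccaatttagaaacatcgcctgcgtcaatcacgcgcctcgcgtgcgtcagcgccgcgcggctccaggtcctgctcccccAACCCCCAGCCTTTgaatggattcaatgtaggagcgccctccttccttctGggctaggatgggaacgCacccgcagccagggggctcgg

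Arc spans chr15:74669083-74672570 on the minus strand, with its main start at 74672568. Its single promoter peak was the strongest of the 9 genes, with 4.26 in replicate 1 and 6.28 in replicate 2, and a mean above that of 89.4 percent of genes with a promoter peak. Upstream lay 3 shared distal regions, at 972 bp (2.24 and 2.03), 5.01 kb (1.75 and 2.25) and 6.67 kb (2.54 and 3.31). The strongest of them reached 0.596 times the promoter in replicate 1 and 0.527 times in replicate 2. On the downstream side 5 regions between 4.12 and 13.0 kb from the start had a peak in replicate 1 alone, with values of 0.706 to 1.72. For those at 4.71 and 13.0 kb, the longer peak list of replicate 2 held a peak of 1.27 and of 1.57. Within 100 kb Arc had 15 shared distal regions, the most of the 9 genes, but Arc was the nearest coding gene for 3 of them. The Arc promoter held an EGR site at -111 bp, overlapping a GC box at -108 bp, inside a footprint of both replicates.

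Npas4 spans chr19:4984355-4990316 on the minus strand, and its main start, at the gene's upstream end, is at 4990316. Its promoter peak lay 256 bp downstream of that start in replicate 1 and 305 bp downstream in replicate 2, at its other annotated starts, with 1.56 and 2.25. Npas4 had instead the strongest element outside a promoter of the 9 genes. Its lead was narrow in replicate 2, where the Nr4a3 element 1.69 kb upstream had 5.26. The Npas4 region 11.6 kb upstream had 5.19 in replicate 1 and 5.31 in replicate 2 (mean 5.25 ± 0.08, SD, n = 2), which is 3.32 and 2.36 times the promoter. It fell in the top 0.108 percent of shared distal regions in replicate 1 and the top 0.492 percent in replicate 2. Further shared regions lay 3.92 kb (2.88 and 2.63), 9.29 kb (1.88 and 1.80) and 11.9 kb (1.71 and 2.52) upstream. Each of the 4 distal regions was above the promoter in replicate 1, and all but the one at 9.29 kb were above it in replicate 2. A region 2.79 kb upstream had 2.63 and 3.10, and it covers the start of AC124502.5 and so counts as the promoter of another gene.

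The sequences of the Npas4 elements 11.6 kb (chr19:5001801-5002080) and 3.92 kb (chr19:4994141-4994340) upstream are shown because both footprint sets mark a like stretch in them. Both are on the minus strand of GRCm38.p6. The letters CCATGGCAA, the core of the X-box bound by RFX factors, were read in them after the sequences had been seen and were then searched on both strands. In the element 11.6 kb upstream this core occurs on both strands, 3 bp apart, under a footprint of 23 bp in replicate 1 and 26 bp in replicate 2. The element 3.92 kb upstream holds it under a footprint of 33 bp in both replicates. No other region searched around the 9 genes held this core, and 1.41 percent of all 300 bp windows at shared distal regions and 1.65 percent of all promoters did.
Npas4 element at 11.6 kb: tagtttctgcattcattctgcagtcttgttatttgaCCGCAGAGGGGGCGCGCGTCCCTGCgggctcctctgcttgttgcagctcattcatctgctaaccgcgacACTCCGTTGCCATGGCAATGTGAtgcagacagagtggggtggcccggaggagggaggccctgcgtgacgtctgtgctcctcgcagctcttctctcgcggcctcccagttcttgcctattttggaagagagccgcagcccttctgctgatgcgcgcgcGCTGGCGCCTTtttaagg
Npas4 element at 3.92 kb: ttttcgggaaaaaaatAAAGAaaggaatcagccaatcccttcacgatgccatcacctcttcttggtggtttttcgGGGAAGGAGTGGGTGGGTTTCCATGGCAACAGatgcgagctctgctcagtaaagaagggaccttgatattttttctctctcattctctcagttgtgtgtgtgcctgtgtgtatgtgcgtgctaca

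**Figure D2:**
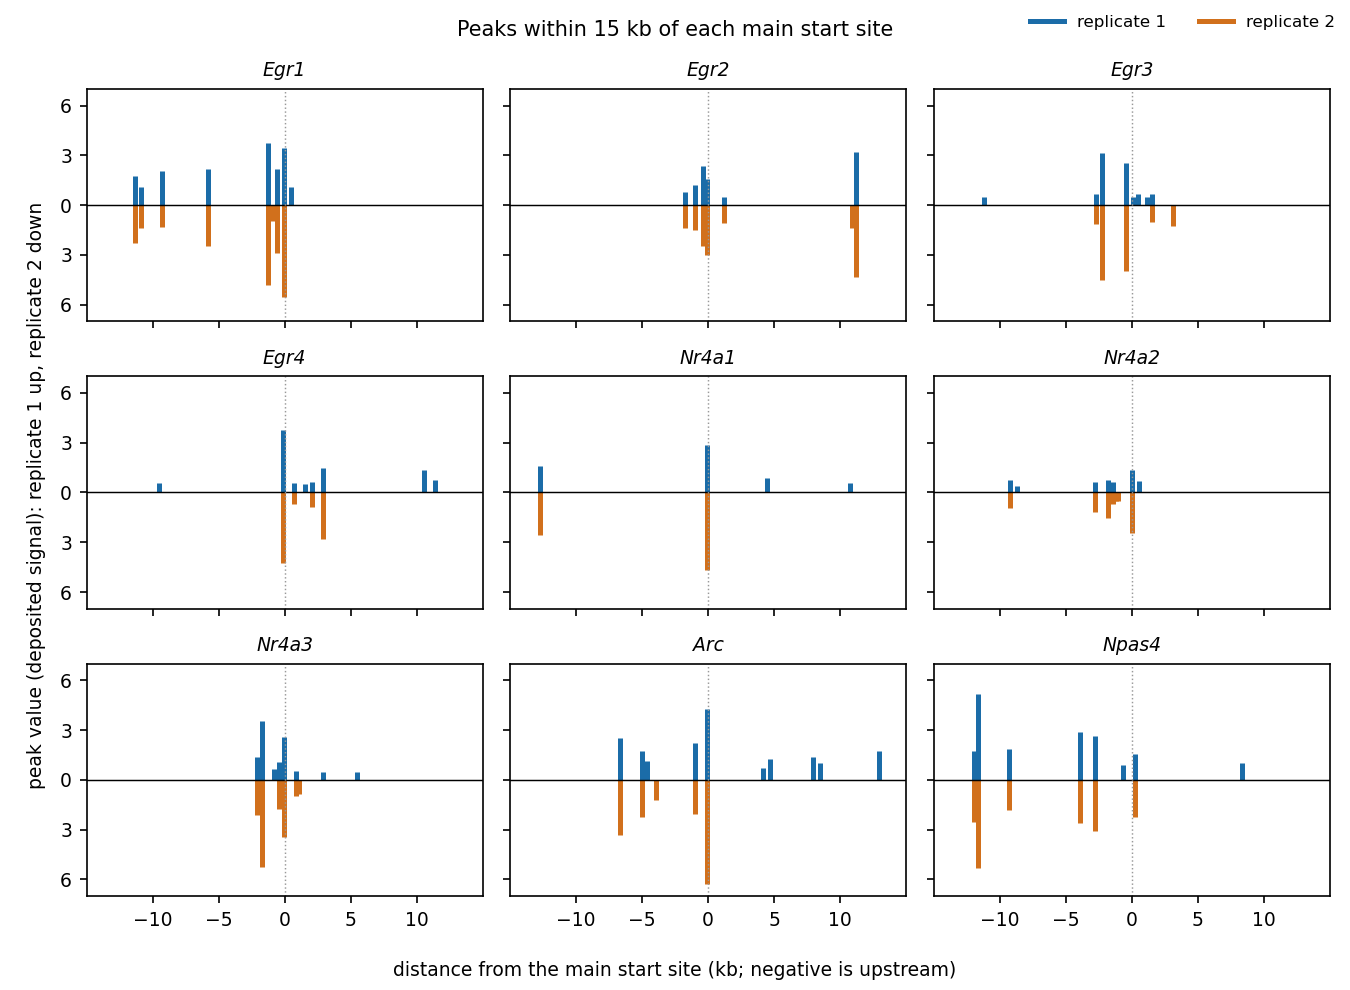
Peaks within 15 kb of the main start are drawn for each gene by distance from the start in kb, with the deposited value of replicate 1 upward and of replicate 2 downward. Among the tall bars outside promoters are those 11.6 kb upstream of Npas4 (5.19 and 5.31), 1.69 kb upstream of Nr4a3 (3.54 and 5.26) and 2.25 kb upstream of Egr3 (3.15 and 4.53). The bar at 11.2 kb downstream of Egr2 is the promoter of Ado.

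Setting the strongest element outside the promoter against the promoter divided the genes by size. In Npas4, Nr4a3 and Egr3 the element exceeded the promoter in both replicates, and in Nr4a1 in replicate 1. In Egr1, Egr2, Egr4, Nr4a2 and Arc the element stayed below the promoter in both, at 0.401 to 0.640 times in replicate 1 and 0.448 to 0.663 times in replicate 2. The highest of those ratios in each replicate was Egr2 in replicate 1 and Egr4 in replicate 2. Values are each peak's own, and peaks differ in width, so the ratio compares heights and not the total opening.

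**Figure D3:**
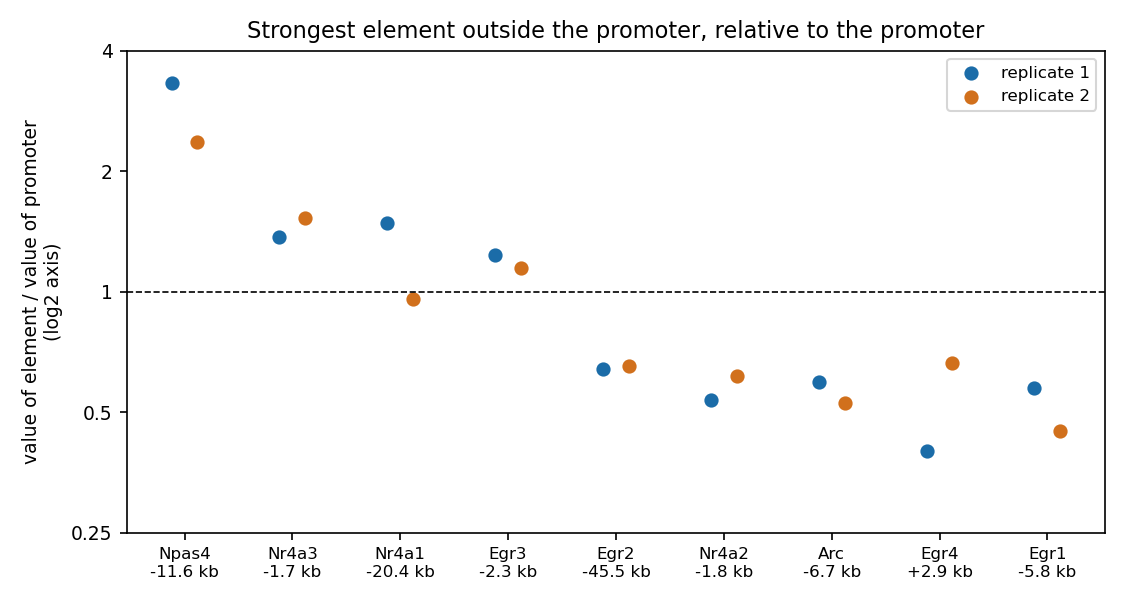
For each gene, the value of its strongest shared region outside the promoter is divided by the value of its promoter, on a log2 axis, with replicate 1 left of replicate 2 and the element's distance from the main start under the name. Points above the dashed line at 1 are elements stronger than the promoter. Npas4 reaches 3.32 and 2.36, and Egr1 is at 0.574 and 0.448.

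Within 100 kb of the 9 genes, 209 regions had a peak in at least 1 replicate, and 132 of them were shared. Promoters accounted for 18 of the shared regions, gene bodies for 7, distal sites for 68 and promoters of other genes for 39. Each gene had at least 1 shared distal region within 100 kb, which 86.1 percent of all genes had, and each was the nearest coding gene of at least 1 region away from starts, against 52.7 percent of all genes. Shared distal regions numbered 15 for Arc, 13 for Nr4a1, 10 for Egr1, 9 for Egr3, 6 for Npas4, 5 each for Egr2 and Nr4a3, 3 for Egr4 and 2 for Nr4a2, beside a median of 4 over all genes. With replicate 2 left out, the count became 27 for Arc, 18 for Egr3, 8 for Egr2 and 7 for Egr4, and with replicate 1 left out it became 9 for Nr4a3. Among the stronger 50% of peaks, Nr4a3 had 2, Egr2 1 and Nr4a2 0. Shared gene-body regions were found in 4 of the genes (Egr2, Egr4, Nr4a2 and Nr4a3), against 36.6 percent of all genes. A peak within 100 bp of the main start was present in both replicates in 7 of the 9, all but Egr3 and Npas4, against 44.7 percent of all genes.

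Of the 68 shared distal regions, 30 had one of the 9 genes as their nearest coding gene. By gene these were 5 for Egr3, 4 each for Egr1, Egr2, Nr4a3 and Npas4, 3 for Arc, and 2 each for Egr4, Nr4a1 and Nr4a2. Of those 30, 27 lay upstream, and the 3 downstream ones belonged to Egr1, Egr4 and Nr4a2. The upstream share among them was 90 percent, beside 66.5 percent of the 15995 shared distal regions within 100 kb of their nearest coding gene and outside it. Regions clustered close to the starts, with 1 (Nr4a1) to 5 (Egr2 and Nr4a3) shared regions within 5 kb of the main start, where the median gene had 1. Of the 132 shared regions of all classes, 118 were higher in replicate 2.

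**Figure D4:**
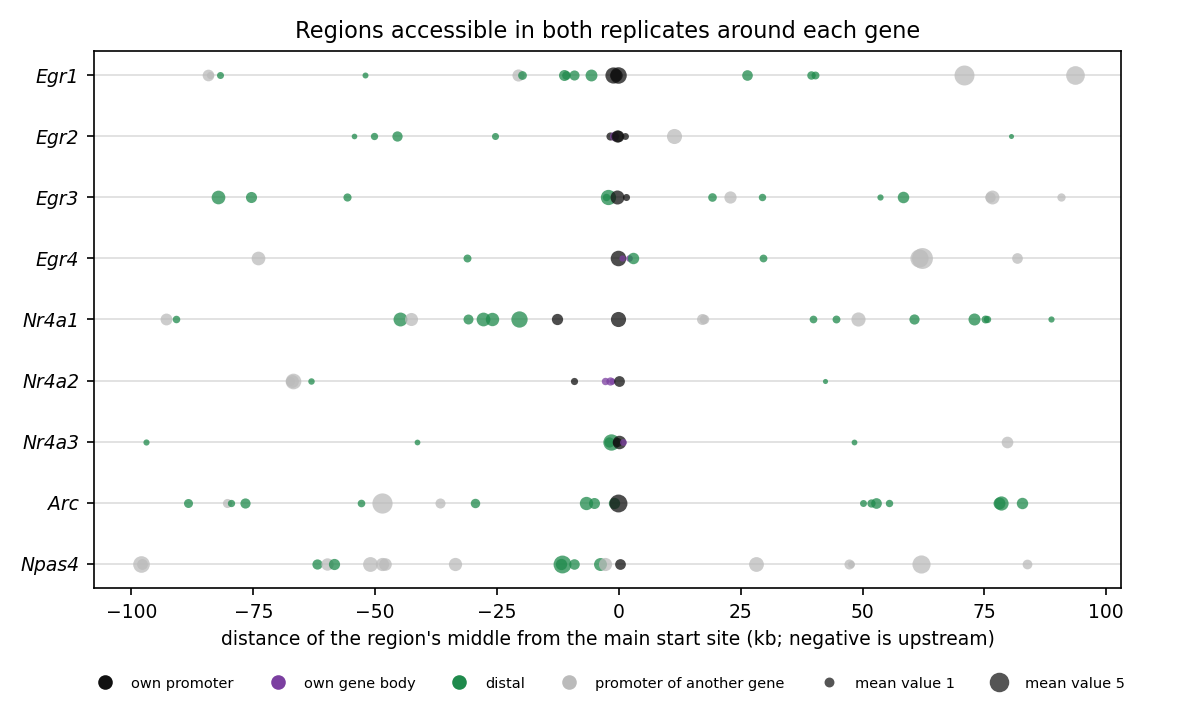
Regions shared by both replicates are placed by the distance of their middle from the main start of each gene in kb, with the area of a point in proportion to the mean value. Black points are the gene's own promoters, purple points gene-body regions, green points distal regions and grey points promoters of other genes. In these shared regions Arc has the most green points (15) and Nr4a2 the fewest (2).

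The remaining 77 regions were seen in 1 replicate, 55 in replicate 1 and 22 in replicate 2. Replicate 1 alone accounted for 26.3 percent of the regions around the 9 genes and replicate 2 alone for 10.5 percent. Over the 86813 regions within 100 kb of any coding start, those shares were 17.6 and 20.2 percent. Arc contributed 13 and Egr3 11 of the 55 regions seen in replicate 1 alone. Of the 55, 28 had an overlapping peak in the longer list of replicate 2, as had 11 of the 22 in the longer list of replicate 1. Replicate 1 was the deeper library, and the part of depth in this difference was not tested.

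Footprints in the promoters, counted within 500 bp of the main start, averaged 7.11 per gene in each replicate. The median, not the mean, over the 12692 genes with a promoter peak in both replicates was 5 in each. Egr1 held 10 in both replicates, and Nr4a2 held 8 in replicate 1 and 11 in replicate 2. Npas4 held 9 and 6, Nr4a3 7 and 9, Nr4a1 7 and 5, Arc 6 and 7, Egr4 5 and 7, and Egr2 5 and 6. Egr3 had 7 in replicate 1 but 3 in replicate 2, the widest gap. In the 30 distal regions nearest to these genes the median was 3 footprints in both replicates, beside 3 and 2 over all shared distal regions.

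Motifs known to bind regulators of these genes were searched on both strands in the 55 shared regions that belong to the 9 genes. The letters were TGACGTCA for the full CRE, TGACG for its half-site, GCGNGGGCG for EGR, TGANTCA for AP-1, AAAGGTCA for the NBRE bound by NR4A proteins, CCGGAA for ETS, CACGTG for the E-box, GGGCGG for the GC box and TATAAA for the TATA box, beside the CArG box and the MEF2 site. A full CRE also counts as half-sites, and EGR sites can overlap GC boxes. Of 134 occurrences, 20 lay wholly inside a footprint of both replicates. These were 7 CRE half-sites, 5 GC boxes, 4 EGR sites, 2 ETS cores, 1 MEF2 site and 1 AP-1 site. A match is a run of letters and was not tested for binding.

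CRE half-sites in footprints of both replicates were found for Egr1 (-64 bp), Egr3 (-503 and -2329 bp), Egr4, Nr4a2 and Nr4a3. A half-site occurred within 500 bp of the main start of 8 of the 9 genes, all but Arc, and in 46.6 percent of all promoters. The full CRE occurred in 1 of the 9 promoters, that of Nr4a2, against 3.24 percent of all promoters. It lay at -43 bp, inside a footprint of replicate 2 but not of replicate 1. EGR sites were in 4 of the 9 promoters, those of Egr1, Egr4, Nr4a1 and Arc, against 15.4 percent of all promoters. Those 4 promoters held 63.3 (Arc) to 67.7 (Egr1) percent G and C, beside a median of 54.9 over all promoters. The EGR letters are themselves mostly G and C, and the part of base composition in these shares was not tested. Footprints of both replicates covered an EGR site at Egr1 (-597 bp), Egr3 (-2219 bp), Nr4a1 and Arc. CArG boxes stood in the promoters of Egr1, Egr2 and Egr3, against 4.28 percent of all promoters, and none of their 9 occurrences in the regions searched lay inside a footprint of both replicates. No promoter of the 9 held AP-1 letters, which 19.0 percent of all promoters held, and the AP-1 site in a footprint of both replicates lay 97.1 kb upstream of Nr4a3. No NBRE letters were found in the 55 regions. They are rare in general, in 4.02 percent of all promoters and 0.676 percent of 300 bp windows at shared distal regions.

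Other genes of the activity response were also open at their promoters. Of 36 such genes listed, 35 were matched by symbol and all 35 had a promoter peak in both replicates, with medians of 3.31 in replicate 1 and 4.27 in replicate 2. Over all protein-coding genes the share was 57.9 percent, with medians of 2.19 and 3.20. The highest by mean over the replicates were Per1, a circadian clock gene (7.10 and 9.42), Jun, an AP-1 subunit (5.46 and 9.20), and Klf10, a zinc-finger factor (5.34 and 6.73), each above Arc in both replicates. In replicate 2 alone, Sik1 (7.22) and Jund (6.83) exceeded Klf10. Of 20 genes for factors that act on or with the 9 genes, 18 were matched and 17 had a promoter peak in both replicates. Their medians of 2.14 and 2.85 lay below those of all genes. Srf, which encodes serum response factor and stands in both lists (4.69 and 6.05), Creb1, which encodes CREB (4.72 and 5.76), and Rxrb, a retinoid X receptor (4.20 and 4.07), were the highest by mean, although Ep300 (2.87 and 5.08), which encodes the coactivator p300, was among those above Rxrb in replicate 2. Elk3, an ETS factor that acts with SRF, had no promoter peak in either replicate.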

How the data were processed

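DNase-seq was measured in 2 libraries of right cerebral cortex in 1 group. Peak lists carry a signal per peak that the authors deposited, in mm10 coordinates per the labels. The sources used here give no aligner, peak caller or normalization. Footprint lists and lists of intervals carry a false discovery rate (an adjusted p-value), as the authors deposited it, and these values served to describe sites.

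The shorter peak list of each library was the main one. Peaks of the 2 replicates that overlapped by 1 bp or more were merged into shared regions. Promoters were 500 bp on either side of any GENCODE M21 start, and the strongest peak there gave the promoter value. The main start was that of the highest APPRIS principal transcript. Distal regions lay within 100 kb and had no start of any gene within 500 bp. Sequences came from GRCm38.p6 and the RefSeq promoter table. Overlap, merging and motif code was tested on simulated data. Python 3 with SciPy and Matplotlib was used.

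The members and lists were chosen with earlier results of these data known. Alternatives were the longer list, windows, overlap, the stronger peaks, distance and leaving out each replicate. With 2 samples of 1 group no test was run. All 9 genes are named, with each gene's strongest own region, every shared distal region up to 20 kb upstream, and the 3 highest and up to 3 without a peak of each gene list. Other distal regions, single-replicate regions, Ep300, Sik1 and Jund were named after their values were seen.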

Additional observations from a re-analysis of the deposited data

How the results depend on the processing

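The number of members with a promoter peak stayed at 9 under the longer list, a window of 100 bp, the main start alone, the stricter overlap and the stronger peaks. It also stayed at 9 with a window of 2000 bp and with each replicate left out, settings that cannot lower it. Within 100 bp of any annotated start, Egr3 counted only through weaker peaks (mean 0.830, against 3.25). The median promoter value was 3.25 and became 5.18 when all promoter peaks were summed. The 68 shared distal regions became 106 with the longer list, 39 within 50 kb and 30 where only the nearest coding start counted, and 84 to 107 with 1 replicate left out. The 7 gene-body regions became 12 with the longer list, 1 with a promoter window of 2000 bp and 11 with either replicate left out. Footprints per promoter averaged 7.11, or 7.28 when touching the window counted and 2.33 within 100 bp. The 20 motifs in footprints of both replicates became 48 when touching counted and 37 to 39 with 1 replicate left out. With a window of 2000 bp the centred log2 difference, replicate 1 minus replicate 2, changed sign in Egr3 (0.18, against -0.13) and Nr4a3 (-0.074, against 0.089), since stronger regions then enter the window. Of 162 alternatives for single genes, 126 stayed within the limit set for each result, 34 moved and 2 changed sign. Leaving out 1 of 2 replicates cannot carry a mean beyond their SD, so those alternatives for promoter values had to stay. The 72 alternatives for distal counts have no such spread, and 24 of them moved. No paired analysis was possible because there was only 1 group. By the inferred depth, values of replicate 2 rest on fewer reads per unit than those of replicate 1.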
